A study of Mus musculus with 9 samples.

Results

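Ephrins and Eph receptors of blood vessels were followed as 6 genes: the ephrins Efnb2, Efnb1 and Efna1 and the receptors Ephb4, Epha2 and Epha4. The genes were taken by symbol, with earlier results of these data known, and all 6 were found among the 56748 gene identifiers of the count table. All 6 also passed the low count filter and were among the 19486 genes tested. RNA came from lung endothelial cells of C57BL/6 mice at 6 weeks of age, sorted as DAPI-/CD45-/CD31+, with 3 libraries each from Notch1f/f, DNMAML and WT mice. Notch1f/f denotes a Notch1 allele flanked by recombinase sites, so that the receptor gene can be deleted in chosen cells. DNMAML stands for a truncated Mastermind that occupies the Notch complex on DNA and keeps it from activating transcription. The labels leave out the recombinase, its driver, the time of induction and whether WT mice carried it. They also do not tie each library to a mouse, so the p-values measure the spread between libraries, which may be in part technical.

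Ephrins are ligands held on the cell surface, and Eph receptors are receptor tyrosine kinases on the cells they touch. Binding signals both ways, forward into the receptor cell and in reverse into the ephrin cell, and commonly drives contacting cells apart or sorts them into separate territories. In blood vessels ephrin-B2, made from Efnb2, marks arterial endothelium, and its receptor EphB4 marks veins. Efnb2 is a well-known target of Notch in arterial endothelium, and it is also made by pericytes and smooth muscle cells. The comparisons ask how levels of these genes differ with the Notch1f/f and DNMAML genotypes.

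The RefSeq promoters of Efnb2 and Efnb1, closely related ephrins of the B class, are shown because Notch acts on genes through the DNA-binding protein Rbpj. Each window runs 5′ to 3′ on the gene's strand from 250 bases before the start of transcription to 50 bases after it. The Efnb2 window is chr8:8661193-8661492 on the minus strand and the Efnb1 window chrX:99135811-99136110 on the plus strand, both on GRCm38.p6. Capitals mark the Rbpj core letters TGGGAA, searched on both strands as TGGGAA and TTCCCA.
Efnb2: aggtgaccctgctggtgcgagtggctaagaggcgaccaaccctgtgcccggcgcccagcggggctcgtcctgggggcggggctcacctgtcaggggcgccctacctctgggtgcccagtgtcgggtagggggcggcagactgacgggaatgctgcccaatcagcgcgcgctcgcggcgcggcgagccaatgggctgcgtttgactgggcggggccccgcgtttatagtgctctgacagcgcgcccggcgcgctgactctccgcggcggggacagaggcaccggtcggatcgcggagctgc
Efnb1: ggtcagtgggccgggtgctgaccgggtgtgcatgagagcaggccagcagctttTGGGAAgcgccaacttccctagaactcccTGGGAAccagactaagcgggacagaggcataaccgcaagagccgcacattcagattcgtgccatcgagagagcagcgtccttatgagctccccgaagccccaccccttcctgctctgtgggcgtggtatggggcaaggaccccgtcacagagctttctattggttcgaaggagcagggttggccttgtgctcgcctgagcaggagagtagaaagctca
The Efnb2 window held no copy of the core, and the Efnb1 window held 2, beginning 197 and 168 bases before the start. The Epha4 window held 1 copy, and the windows of Ephb4, Epha2 and Efna1 held none. Of 32851 mouse promoter windows of the same length, 25.6% held the core at least once. A match of these letters is a description of the sequence and not a binding site, and its absence from so short a window says nothing about Rbpj at the gene.

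Total counts ran from 15522100 to 27842496 per library. Notch1 was read at 29.5 to 176 CPM (reads relative to the TMM-scaled library size) in Notch1f/f libraries, 679 to 872 CPM in DNMAML libraries and 766 to 909 CPM in WT libraries, so the Notch1f/f label and the gene's level went together. The endothelial gene Cdh5 was between 5366 and 6656 CPM in every library, and the 10 endothelial markers together took 15500 to 18700 CPM in Notch1f/f, 16600 to 18000 CPM in DNMAML and 17200 to 18900 CPM in WT libraries. Reads of the Y-linked gene Ddx3y were present above 10 CPM in Notch1f/f replicate 1, DNMAML replicates 1 and 3 and WT replicate 2, so the sexes were mixed within each genotype. The immediate early gene Fos was far lower in 1 library of each genotype, at 495 CPM in Notch1f/f replicate 1, 345 CPM in DNMAML replicate 2 and 319 CPM in WT replicate 2, against 1230 CPM or more in the other 6.

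Of the 6 genes, Efnb2 fell in Notch1f/f cells relative to WT, and no other ephrin or receptor passed the test in any of the 3 genotype comparisons. Efnb2 (ENSMUSG00000001300, chromosome 8, 8667434 to 8711242, minus strand, GRCm39) had 561, 355 and 587 CPM in Notch1f/f libraries, 552, 761 and 812 CPM in DNMAML libraries and 1036, 1036 and 1070 CPM in WT libraries. Every Notch1f/f and every DNMAML library was below every WT library, and the WT libraries lay close together while the other genotypes were spread. Efnb2 averaged 501 ± 127 CPM in Notch1f/f and 1047 ± 19.5 CPM in WT (SD, n = 3 each), a log2 change of -1.06 (SE 0.20), or a 2.09-fold lower level. The edgeR quasi-likelihood test gave a Benjamini-Hochberg adjusted p of 0.0336 over all genes tested. In this comparison 0.836% of all genes passed, 163 in number, so passing was uncommon. The result rests on few libraries. Without Notch1f/f replicate 2, the lowest library, the log2 difference was -0.86 (edgeR adjusted p = 0.0873), and without WT replicate 1, 2 or 3 it was -1.06, -1.07 or -1.05 (edgeR adjusted p = 0.116, 0.106 and 0.0957). With the library lowest in Fos left out of each genotype, the log2 difference was -1.16 (edgeR adjusted p = 0.0849).

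In DNMAML cells Efnb2 stood between the other genotypes, at 709 ± 138 CPM against 1047 ± 19.5 CPM in WT (SD, n = 3 each). The log2 difference was -0.56 (SE 0.20) and did not pass (edgeR adjusted p = 0.594). Only 0.00513% of all genes passed in that comparison, 1 gene of 19486. Same-numbered DNMAML and WT libraries deviated together from their genotype means. The replicate number was therefore taken to pair them, though the labels do not say what it marks. Replicate 2 was the library lowest in Fos in both genotypes. A shared number and a shared level of Fos cannot be told apart there. With the replicate number as a block in these 6 libraries, Efnb2 fell by 0.58 on the log2 scale (SE 0.12, edgeR adjusted p = 0.0352), and 1.71% of the genes tested passed. With the same block in all 9 libraries the log2 difference was -0.57 and did not pass (edgeR adjusted p = 0.579). Nor did it pass in the 6 libraries without the block, at -0.56 (SE 0.15, edgeR adjusted p = 0.235). DNMAML replicate 1 was the lowest of its genotype, and its pair, WT replicate 1, had 1036 CPM, so the within-pair gap was widest there. Notch1f/f and DNMAML libraries overlapped in Efnb2, Notch1f/f replicates 1 and 3 lying above DNMAML replicate 1. Their log2 difference was -0.50 (SE 0.20, edgeR adjusted p = 0.709), in a comparison where 0.0205% of all genes passed, 4 in number.

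Mural cells also make Efnb2, and the summed level of their markers was lower in every Notch1f/f library than in every WT library. The 14 mural markers summed to 160, 200 and 287 CPM in Notch1f/f, 717, 362 and 703 CPM in DNMAML and 884, 834 and 590 CPM in WT libraries. Among the DNMAML libraries replicate 1 had the lowest Efnb2 and the highest sum, with the sum of replicate 3 close to it. Of the 14 markers 10 had a log2 difference below 0 between Notch1f/f and WT, where 5 passed, all of them lower, and 9 were below 0 between DNMAML and WT, where none passed. DESeq2 put 7 lower and 1 higher past the threshold between Notch1f/f and WT, and 1 higher between DNMAML and WT, and limma-voom put 3 lower and none past it. The higher gene was Rgs5, a pericyte gene named after its values were seen, at 20.9, 21.3 and 23.1 CPM in Notch1f/f, 27.8, 22.2 and 29.5 CPM in DNMAML and 13.4, 13.3 and 16.2 CPM in WT libraries. It was also the 1 gene at an unadjusted p below 0.05 between DNMAML and WT in the edgeR test, and it rose there with the replicate block. Cnn1, a smooth muscle gene, was the only mural marker at 0 in any library. Fibroblast markers summed to 257 to 914 CPM in Notch1f/f, 520 to 2590 CPM in DNMAML and 655 to 2460 CPM in WT libraries, with 9 of 10 below 0 in Notch1f/f against WT and 4 of 10 in DNMAML against WT, and none past the threshold in the edgeR test. The 16 cell cycle genes were all above 0 in both genotypes against WT, with sums of 185 to 637 CPM in Notch1f/f, 418 to 529 CPM in DNMAML and 144 to 168 CPM in WT libraries. Of these genes 6 rose in Notch1f/f and none passed in DNMAML against WT in the edgeR test. With the replicate block in 6 libraries 1 rose in Notch1f/f and 13 rose in DNMAML. DESeq2 put 13 higher past the threshold in Notch1f/f and 11 higher in DNMAML, and limma-voom put 0 past it in each. The part of mural or fibroblast RNA, or of cycling cells, in the Efnb2 values was not tested. In sorted bulk RNA, fewer cells of a type and less RNA per cell cannot be told apart.

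**Figure D1:**
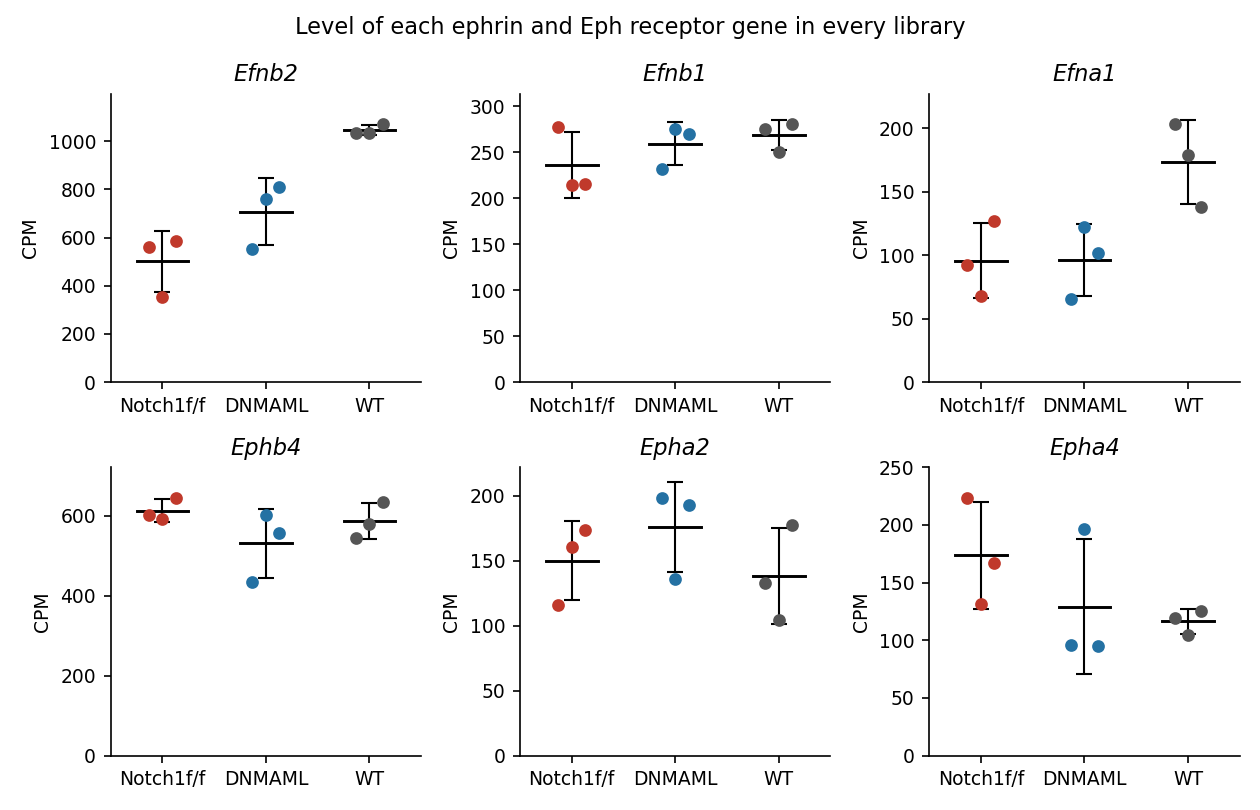
Level of each gene in CPM in every library of Notch1f/f, DNMAML and WT lung endothelial cells; points are libraries, horizontal bars the mean of 3 and error bars the SD. Efnb2 was at 355 to 587 CPM in Notch1f/f and 552 to 812 CPM in DNMAML, below all WT libraries, and the 3 genotypes overlapped in Ephb4.

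Efna1 (ENSMUSG00000027954, chromosome 3, 89179040 to 89188449, minus strand, GRCm39) encodes ephrin-A1, a lipid-anchored ligand of the EphA receptors, EphA2 among them. It had 92.5, 67.9 and 127 CPM in Notch1f/f libraries, 65.7, 122 and 102 CPM in DNMAML libraries and 203, 179 and 138 CPM in WT libraries. All libraries of both mutant genotypes were below all WT libraries, the nearest being Notch1f/f replicate 3 and WT replicate 3. The means were 95.8 ± 29.7 CPM in Notch1f/f, 96.5 ± 28.6 CPM in DNMAML and 174 ± 33.1 CPM in WT (SD, n = 3 each). The log2 difference from WT was -0.86 (SE 0.27) in Notch1f/f and -0.85 (SE 0.27) in DNMAML, and neither passed (edgeR adjusted p = 0.187 and 0.553). DESeq2 put Efna1 past the threshold in Notch1f/f against WT (adjusted p = 0.0317). With no low count filter Efna1 passed in both (edgeR adjusted p = 1.89e-05 in Notch1f/f and 8.81e-05 in DNMAML), in fits where 1415 and 460 of all genes passed. Between Notch1f/f and DNMAML the log2 difference of Efna1 was -0.01 (SE 0.27, edgeR adjusted p = 0.999), its sign turning with the library scaling.

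Efnb1 (ENSMUSG00000031217, chromosome X, 98179736 to 98192597, plus strand, GRCm39) encodes ephrin-B1, the close relative of ephrin-B2, from the X chromosome. It had 277, 214 and 215 CPM in Notch1f/f, 232, 275 and 270 CPM in DNMAML and 275, 250 and 280 CPM in WT libraries. The 3 genotypes overlapped. The log2 difference from WT was -0.19 (SE 0.14, edgeR adjusted p = 0.631) in Notch1f/f and -0.05 (SE 0.14, edgeR adjusted p = 0.999) in DNMAML, within the spread of the libraries. The difference between Notch1f/f and DNMAML, at -0.14 (SE 0.14), did not pass either.

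Among the receptors, Ephb4 was the most abundant and differed by no more than the spread of its libraries. Ephb4 (ENSMUSG00000029710, chromosome 5, 137348371 to 137376931, plus strand, GRCm39), the receptor of ephrin-B2, had 603, 592 and 645 CPM in Notch1f/f, 436, 603 and 556 CPM in DNMAML and 545, 580 and 635 CPM in WT libraries. DNMAML replicate 1 was the lowest of the 9, and the rest lay together whatever their genotype. The log2 difference from WT was 0.06 (SE 0.14, edgeR adjusted p = 0.922) in Notch1f/f and -0.14 (SE 0.14, edgeR adjusted p = 0.999) in DNMAML. Notch1f/f over DNMAML gave 0.21 (SE 0.14, edgeR adjusted p = 0.974). Ephb4 shares 33 exon bases, 0.711% of its length, with Zan on the other strand, and the counting was not stated to use strand; the other 5 genes share no exon base with another gene.

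Epha2 (ENSMUSG00000006445, chromosome 4, 141028551 to 141056695, plus strand, GRCm39) encodes EphA2, the main endothelial receptor of ephrin-A1. It had 116, 161 and 173 CPM in Notch1f/f, 198, 136 and 193 CPM in DNMAML and 133, 104 and 178 CPM in WT libraries. The genotypes overlapped, and in each of them the lowest library was the one lowest in Fos. The log2 difference from WT was 0.12 (SE 0.22, edgeR adjusted p = 0.904) in Notch1f/f and 0.35 (SE 0.22, edgeR adjusted p = 0.999) in DNMAML. Without the 3 libraries lowest in Fos these were 0.10 and 0.34. Notch1f/f against DNMAML gave -0.23 (SE 0.22, edgeR adjusted p = 0.999). What part the difference in Fos between libraries has in the spread of Epha2 was not tested.

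Epha4 (ENSMUSG00000026235, chromosome 1, 77343822 to 77491725, minus strand, GRCm39) encodes EphA4, a receptor that binds ephrins of both classes. It had 223, 131 and 166 CPM in Notch1f/f, 96.2, 197 and 94.6 CPM in DNMAML and 119, 104 and 126 CPM in WT libraries. Every Notch1f/f library was above every WT library, though Notch1f/f replicate 2 exceeded WT replicate 3 only narrowly, and the DNMAML libraries lay on both sides. The log2 difference from WT was 0.58 (SE 0.29, edgeR adjusted p = 0.447) in Notch1f/f and 0.15 (SE 0.29, edgeR adjusted p = 0.999) in DNMAML, and Notch1f/f against DNMAML gave 0.43 (SE 0.29, edgeR adjusted p = 0.98). The highest libraries of Notch1f/f and DNMAML were those lowest in Fos, while in WT that library was the lowest. Without these 3 libraries the log2 difference was 0.28 in Notch1f/f and turned to -0.35 in DNMAML, neither past the threshold. With no low count filter and all libraries kept, Epha4 passed in Notch1f/f against WT (edgeR adjusted p = 0.0116). In that fit 1415 of all genes passed.

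**Figure D2:**
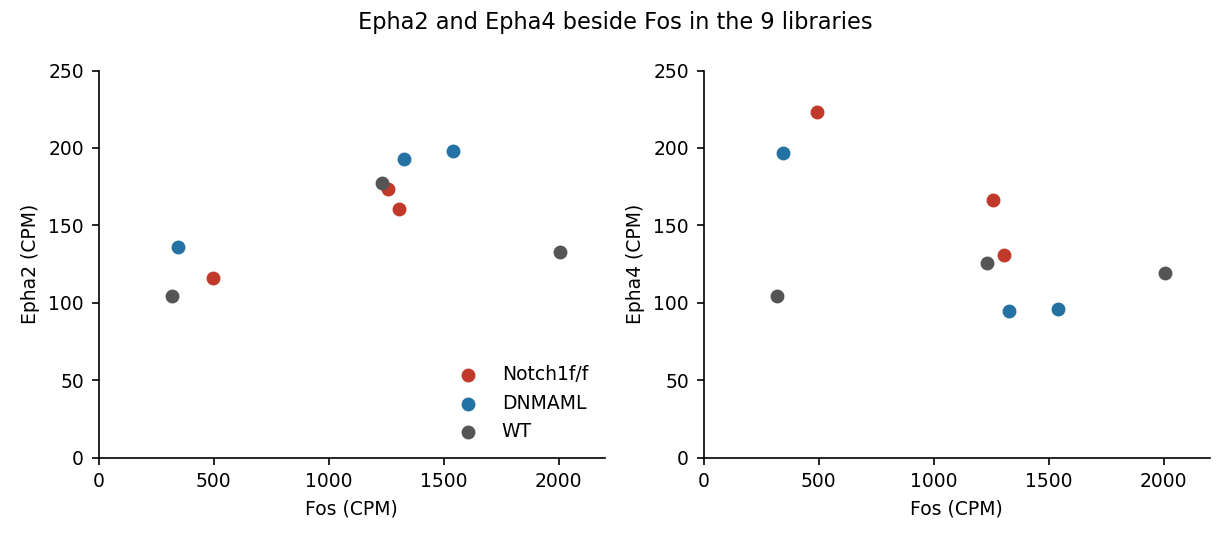
Epha2 (left) and Epha4 (right) in CPM against Fos in CPM in the 9 libraries, coloured by genotype. The libraries at 319 to 495 CPM of Fos held the lowest Epha2 value of each genotype, and the highest Epha4 value of Notch1f/f and of DNMAML but not of WT.

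Counted over the 6 genes, 1 passed in Notch1f/f against WT, none in DNMAML against WT and none in Notch1f/f against DNMAML. At an unadjusted p below 0.05 in the edgeR test the counts were 2, 2 and 1 of the 6, against 2620, 1164 and 1241 of all 19486 genes, and DESeq2 put 2, 0 and 0 past the threshold and limma-voom 1, 0 and 0. The libraries of Notch1f/f and WT did not overlap in 3 of the 6 genes (Efnb2, Efna1 and Epha4), against 17.8% of all genes tested. Those of DNMAML and WT did not overlap in 2 of the 6 (Efnb2 and Efna1), against 14.4% of all genes. Notch1f/f and DNMAML overlapped in all 6, while 9.72% of all genes did not overlap between them. The median log2 difference of the 6 genes was -0.06 in Notch1f/f against WT, -0.10 in DNMAML against WT and -0.07 in Notch1f/f against DNMAML, beside 0.017, 0.0090 and 0.0040 over all genes. The 2 comparisons with WT share the same WT libraries, so their values are not independent of each other.

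**Figure D3:**
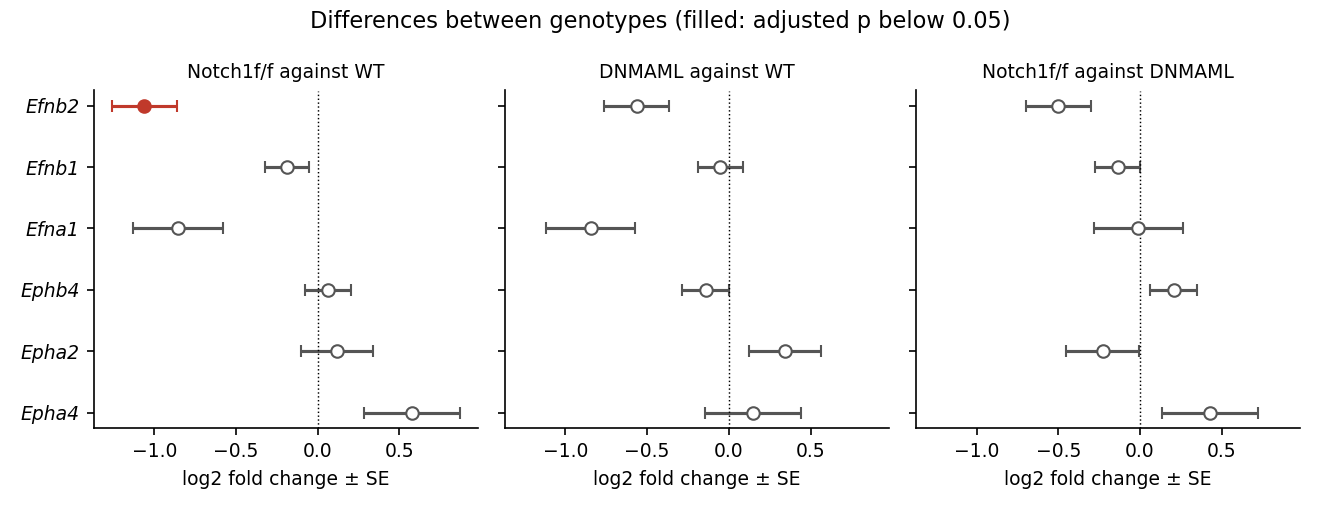
Log2 fold change of each gene in the 3 comparisons, with error bars of 1 SE; filled points passed at an adjusted p below 0.05. Efnb2 in Notch1f/f against WT, at -1.06, was the only filled point.

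Set per kilobase of exon, so that genes can be ranked, the order of the genes differed between genotypes. In Notch1f/f libraries Ephb4 led, at 132 ± 6.02 CPM per kilobase (SD, n = 3), followed by Efnb2 at 73.1 ± 18.5, Efnb1 at 68.2 ± 10.4 and Efna1 at 52.4 ± 16.2 CPM per kilobase. The libraries of Ephb4 stood clear of the rest there, while those of Efnb2 and Efnb1 overlapped, as did those of Efnb1 and Efna1. DNMAML libraries had Ephb4 at 115 ± 18.6, Efnb2 at 103 ± 20.1, Efnb1 at 75.0 ± 6.80 and Efna1 at 52.7 ± 15.6 CPM per kilobase, with Ephb4 and Efnb2 overlapping and a narrow gap below Efnb2 and below Efnb1. In WT libraries Efnb2 led at 153 ± 2.84, ahead of Ephb4 at 126 ± 9.79, Efna1 at 94.8 ± 18.1 and Efnb1 at 77.7 ± 4.64 CPM per kilobase, where only Efna1 and Efnb1 overlapped. Efnb2 was first in each WT library, and Ephb4 was first in each DNMAML and each Notch1f/f library. In Notch1f/f replicate 2 Efnb1 also stood above Efnb2. Epha2 and Epha4 came last in every genotype by mean, at 32.1 ± 6.47 and 21.6 ± 5.78 CPM per kilobase in Notch1f/f, 37.6 ± 7.39 and 16.0 ± 7.25 in DNMAML and 29.6 ± 7.93 and 14.4 ± 1.36 in WT. The libraries of Epha2 and Epha4 overlapped in Notch1f/f and did not in DNMAML or WT.

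The ratio of Efnb2 to Ephb4 within a library sets the arterial ligand against its venous receptor and does not depend on library scaling. Per kilobase of exon it was 0.63, 0.406 and 0.616 in Notch1f/f libraries, 0.858, 0.855 and 0.987 in DNMAML libraries and 1.29, 1.21 and 1.14 in WT libraries. The 3 genotypes did not overlap: all WT libraries were above 1, all DNMAML libraries lay below 1 and all Notch1f/f libraries were lower still. The means were 0.551 ± 0.125 in Notch1f/f, 0.9 ± 0.0755 in DNMAML and 1.21 ± 0.0733 in WT (SD, n = 3 each). On the log2 scale the ratio differed by -1.16 between Notch1f/f and WT, by -0.43 between DNMAML and WT and by -0.73 between Notch1f/f and DNMAML. Each of these 3 comparisons had an exact two-sided permutation p of 0.1, also after Benjamini-Hochberg adjustment, which is the smallest that 3 libraries against 3 can give. With any 1 library left out, the differences ran from -1.27 to -0.96, from -0.50 to -0.39 and from -0.84 to -0.53. The ratio is made from the Efnb2 and Ephb4 values given above and is not a separate measurement.

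**Figure D4:**
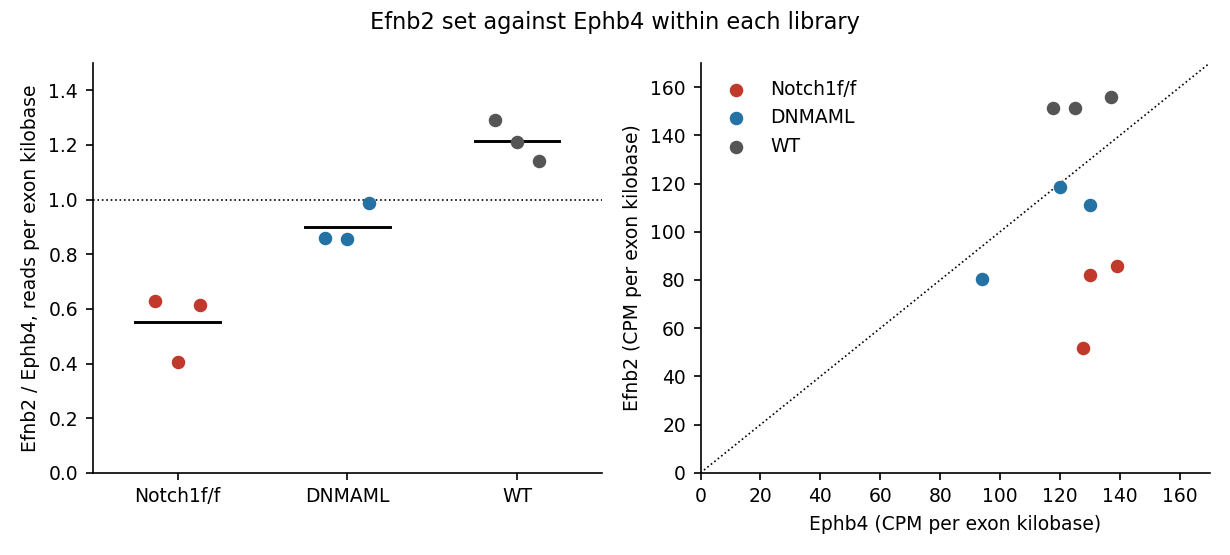
Left, the ratio of Efnb2 to Ephb4 per kilobase of exon in each library, with the mean of 3 as a bar and a dotted line at a ratio of 1. Right, both genes in CPM per kilobase of exon, with a dotted line of equal levels; WT libraries lie above the line, DNMAML and Notch1f/f libraries below it, with mean ratios of 0.551 in Notch1f/f, 0.9 in DNMAML and 1.21 in WT.

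The whole family holds 22 genes, and the 6 described made up nearly all of its reads. The 22 genes summed to 1570 to 1950 CPM in Notch1f/f, 1650 to 2120 CPM in DNMAML and 2270 to 2470 CPM in WT libraries, of which the 6 took 1520 to 1910, 1580 to 2090 and 2250 to 2430 CPM. The low count filter left 16 of the 22. Of these 16, Efnb2 passed in Notch1f/f against WT, where 6 had a log2 difference above 0 and 10 below, with a median of -0.45. In DNMAML against WT 9 lay above 0 and 7 below (median 0.08), and in Notch1f/f against DNMAML 4 above and 12 below (median -0.36), with none past the threshold. At an unadjusted p below 0.05 in the edgeR test the counts were 4, 3 and 3 of 16, beside the counts over all genes given above, and DESeq2 put 3, 0 and 0 past the threshold and limma-voom 1, 0 and 0.

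Ephb1, which encodes a receptor of B-class ephrins, was scarce but spread widely across genotypes. It had 300, 542 and 144 reads in Notch1f/f libraries (13.4, 24.0 and 8.12 CPM), 48, 102 and 54 reads in DNMAML libraries (1.92, 5.09 and 1.97 CPM) and 2, 2 and 34 reads in WT libraries (0.10, 0.13 and 1.73 CPM). Both reads of a pair seem to have been counted, so 2 reads may come from a single pair. No libraries of different genotypes overlapped, though WT replicate 3 came close to the DNMAML libraries. The log2 difference between Notch1f/f and WT was 4.49 (SE 0.98) and missed the threshold (edgeR adjusted p = 0.0692). It was 6.97 without WT replicate 3 (edgeR adjusted p = 0.0142), and it passed with DESeq2 (adjusted p = 3.9e-06). DNMAML against WT gave 2.15 (SE 0.92, edgeR adjusted p = 0.809), and 4.63 without WT replicate 3 or 1.08 without the libraries lowest in Fos, neither past the threshold. Notch1f/f against DNMAML gave 2.35 (SE 0.87, edgeR adjusted p = 0.682). Ephb1 shares 174 exon bases, 2.49% of its length, with an unnamed gene on the other strand, whose reads cannot be told apart from its own here.

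Ephb3, a further receptor of B-class ephrins, had 2.51, 1.77 and 5.86 CPM in Notch1f/f, 15.7, 4.09 and 12.8 CPM in DNMAML and 15.8, 4.62 and 10.6 CPM in WT libraries. Epha1, a receptor best known from epithelium, had 10.2, 11.6 and 11.5 CPM in Notch1f/f, 31.0, 8.54 and 20.9 CPM in DNMAML and 30.8, 8.65 and 17.6 CPM in WT libraries. Neither passed in any comparison, and the log2 difference between Notch1f/f and WT was -1.62 (SE 0.62, edgeR adjusted p = 0.275) for Ephb3 and -0.78 (SE 0.50, edgeR adjusted p = 0.584) for Epha1. In DNMAML and WT, replicate 2 was the lowest library of both genes, and it was also the lowest of its genotype in the 14 epithelial markers. These markers summed to 190, 619 and 1268 CPM in Notch1f/f, 1734, 268 and 1833 CPM in DNMAML and 1615, 466 and 3530 CPM in WT libraries, and none was at 0 in any library. In the edgeR test none passed. At an unadjusted p below 0.05 in that test the counts were 1, 0 and 1 in Notch1f/f against WT, DNMAML against WT and Notch1f/f against DNMAML, beside the counts over all genes given above. DESeq2 put 1, 0 and 1 and limma-voom 0, 0 and 0 past the threshold. Replicate 2 of DNMAML and of WT was also the lowest of its genotype in Fos and in the summed fibroblast markers. Both marker sums were lowest in Notch1f/f replicate 1, as was Epha1, while Ephb3 was lowest in Notch1f/f replicate 2. The part of epithelial or fibroblast RNA, or of the difference in Fos, in the values of Ephb3 and Epha1 was not tested.

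**Figure D5:**
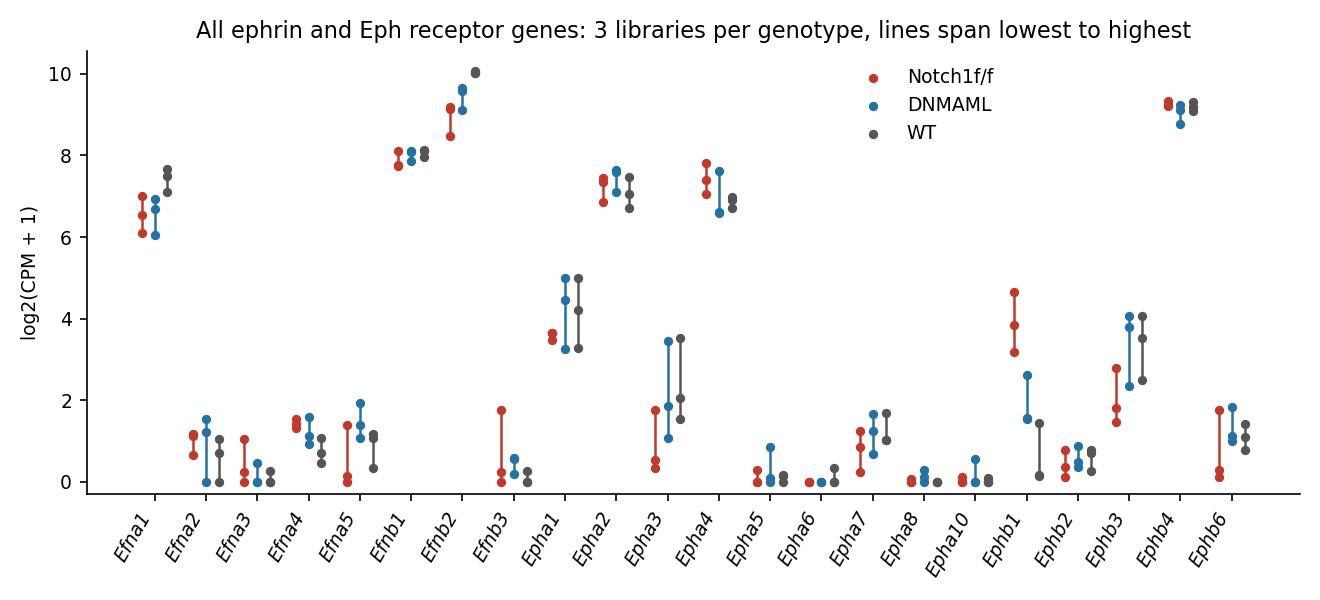
Level of all 22 ephrin and Eph receptor genes as log2(CPM + 1), with 3 libraries per genotype joined by a line from the lowest to the highest. The 6 genes described lie above all others, and Ephb1 is highest in Notch1f/f, at 8.12 to 24.0 CPM, and lowest in WT, at 0.10 to 1.73 CPM.

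Of 38 partners, genes that carry the signal on from ephrins and Eph receptors, 37 were tested, and Fyn, a Src-family kinase that acts downstream of ephrins and Eph receptors, rose in Notch1f/f relative to WT. Fyn had 171, 169 and 146 CPM in Notch1f/f, 117, 146 and 120 CPM in DNMAML and 105, 99.5 and 110 CPM in WT libraries, so that Notch1f/f and WT did not overlap. The log2 change between Notch1f/f and WT was 0.63 (SE 0.12, edgeR adjusted p = 0.0426), and over the 20 other settings tried the adjusted p ran from 0.000766 to 0.172, with 10 settings past the threshold. It did not pass without any 1 of the WT libraries, without DNMAML replicate 1 or 3 or without Notch1f/f replicate 2, with log2 differences of 0.59 to 0.66 in these fits. The other 36 partners did not pass there, and none of the 37 passed in DNMAML against WT or in Notch1f/f against DNMAML. At an unadjusted p below 0.05 in the edgeR test the counts were 8, 7 and 4 of 37 in Notch1f/f against WT, DNMAML against WT and Notch1f/f against DNMAML, against 2620, 1164 and 1241 of all 19486 genes, and DESeq2 put 6, 1 and 0 past the threshold and limma-voom 0, 0 and 0. Partners that DESeq2 put past the threshold in Notch1f/f against WT, named after their values were seen, include the kinase Src, at 8.49 CPM in Notch1f/f and 22.0 CPM in WT on average, and the adaptor Dab2, at 86.0 CPM in Notch1f/f and 45.8 CPM in WT. With the replicate block, 2 partners rose in DNMAML against WT, Tiam1, an exchange factor for Rac, and Yes1, a Src-family kinase, both named after their values were seen. In the same order of comparisons, the median log2 difference of the partners was 0.03, 0.09 and -0.03.

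The most abundant partner was Arhgef15, also called ephexin-5, an exchange factor for small GTPases with a role in endothelium. It averaged 532 ± 104 CPM in Notch1f/f, 573 ± 58.1 CPM in DNMAML and 648 ± 14.7 CPM in WT (SD, n = 3 each), with a log2 difference from WT of -0.29 (SE 0.15, edgeR adjusted p = 0.47) in Notch1f/f. Like Efnb2 it lay close together in WT, and no Notch1f/f or DNMAML library reached the lowest WT library, at 635 CPM, DNMAML replicate 2 coming nearest at 634 CPM. The small GTPases Rac1 and Rhoa averaged 502 ± 74.5 and 424 ± 48.1 CPM in Notch1f/f, 528 ± 23.6 and 422 ± 19.8 CPM in DNMAML and 576 ± 51.4 and 396 ± 49.0 CPM in WT. Rock2, the kinase that acts after Rhoa, averaged 341 ± 34.5 CPM in Notch1f/f, 393 ± 12.5 CPM in DNMAML and 314 ± 20.3 CPM in WT. None of these 4 genes passed.

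Efnb2 was set beside other arterial genes, venous genes and Notch targets, lists of which it is not a member. Of 20 arterial genes 19 were tested and none passed, with 7 at an unadjusted p below 0.05 in the edgeR test in Notch1f/f against WT, 3 in DNMAML against WT and 6 in Notch1f/f against DNMAML. Over all 19486 genes these counts were 2620, 1164 and 1241. DESeq2 put 1 higher and 2 lower past the threshold in Notch1f/f against WT. It put 1 lower past it in DNMAML against WT and 0 in Notch1f/f against DNMAML. Of all genes, DESeq2 put 1067, 213 and 172 past the threshold. Limma-voom put 0 past it in each, and 3 fell in DNMAML against WT with the replicate block. Their median log2 difference was -0.28 in Notch1f/f against WT, -0.24 in DNMAML against WT and 0.14 in Notch1f/f against DNMAML, and the list summed to 4740 to 6420 CPM in Notch1f/f, 5480 to 6300 CPM in DNMAML and 6850 to 7150 CPM in WT libraries. Acvrl1, the ALK1 receptor of BMP9, was the most abundant on the list and weighs most in its sum. It averaged 1785 CPM in Notch1f/f, 2068 CPM in DNMAML and 2660 CPM in WT. Its log2 difference from WT was -0.58 (SE 0.18, edgeR adjusted p = 0.149, past the threshold with DESeq2) in Notch1f/f. In DNMAML it was -0.36 (SE 0.18, edgeR adjusted p = 0.884). Cxcl12, a chemokine of arterial endothelium, gave 0.29 (SE 0.18, edgeR adjusted p = 0.545) in Notch1f/f and -0.24 (SE 0.18, edgeR adjusted p = 0.999) in DNMAML. Of the 19 arterial genes 13 were below 0 and 6 above in Notch1f/f against WT, and 15 below and 4 above in DNMAML against WT. Over all 19486 genes tested, 9402 and 9537 were below 0.

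Of the 14 genes on the venous list, Aplnr, the apelin receptor, rose in Notch1f/f relative to WT. From which kind of vessel the reads of these genes came was not tested. It had 474, 800 and 546 CPM in Notch1f/f, 295, 441 and 373 CPM in DNMAML and 249, 242 and 249 CPM in WT libraries, so that the genotype means ran in the reverse order to those of Efnb2. Its highest value was in Notch1f/f replicate 2, where Efnb2 was lowest, but within DNMAML both genes were lowest in replicate 1. The log2 change between Notch1f/f and WT was 1.30 (SE 0.20, edgeR adjusted p = 0.0166), and 1.32, 1.28 and 1.31 without WT replicate 1, 2 and 3 (edgeR adjusted p = 0.0836, 0.0705 and 0.0586). In DNMAML against WT it was 0.59 (SE 0.20, edgeR adjusted p = 0.553), and with the replicate block it rose by 0.57 (edgeR adjusted p = 0.0489). The most abundant gene on the list, Vwf, which encodes von Willebrand factor, went the other way, with log2 differences from WT of -0.70 (SE 0.20, edgeR adjusted p = 0.123) in Notch1f/f and -1.03 (SE 0.20, edgeR adjusted p = 0.146) in DNMAML. With the replicate block Vwf fell in DNMAML, by 1.04 on the log2 scale (edgeR adjusted p = 0.00621). Flt4, which encodes VEGFR3, gave 0.13 (SE 0.12) in each, with edgeR adjusted p of 0.757 in Notch1f/f and 0.999 in DNMAML. At an unadjusted p below 0.05 in the edgeR test the counts were 6 of 14 in Notch1f/f against WT, 4 in DNMAML against WT and 4 in Notch1f/f against DNMAML, beside the counts over all genes given above. DESeq2 put 3 higher and 2 lower past the threshold in Notch1f/f against WT, 2 lower in DNMAML against WT and 1 higher in Notch1f/f against DNMAML, and limma-voom put 1, 0 and 0 past it. The list summed to 2080 to 2810 CPM in Notch1f/f, 1800 to 2200 CPM in DNMAML and 2630 to 2990 CPM in WT libraries. The median over the 14 was 0.34 in Notch1f/f against WT, -0.03 in DNMAML against WT and 0.43 in Notch1f/f against DNMAML.

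Of 15 Notch targets 14 were tested. The list shares genes with the arterial list, Hey1 and Dll4 among them, so the 2 lists are not separate evidence. Between Notch1f/f and WT 13 of the 14 had a log2 difference below 0, with a median of -0.49, and Heyl and Notch3 fell, by 1.85 (SE 0.38, edgeR adjusted p = 0.0482) and by 2.36 (SE 0.32, edgeR adjusted p = 0.0165) on the log2 scale. Neither passed without WT replicate 1 or 2 or Notch1f/f replicate 2, and Heyl also missed without WT replicate 3, Notch1f/f replicate 1 or DNMAML replicate 3, with log2 differences of -2.06 to -1.57 for Heyl and -2.30 to -2.23 for Notch3 in these fits. At an unadjusted p below 0.05 in the edgeR test 7 of the 14 stood there. The counts over all genes at that level are given above for each comparison. DESeq2 put 5 targets past the threshold in Notch1f/f against WT, all lower, and limma-voom put 1, Notch3. Heyl missed the threshold with limma-voom (adjusted p = 0.107), and in edgeR with the block in 6 libraries, a sex term or the libraries lowest in Fos left out (adjusted p = 0.0942, 0.0571 and 0.0979). Notch3, a receptor gene of mural cells, is also on the mural marker list described above. Heyl averaged 6.23 CPM in Notch1f/f, 20.6 CPM in DNMAML and 22.5 CPM in WT. The part of mural RNA in the values of Heyl and Notch3 was not tested. Between DNMAML and WT all 14 were below 0 (median -0.43) and none passed, with 4 at an unadjusted p below 0.05 in the edgeR test, 0 past the threshold with DESeq2 or limma-voom and 3 lower with the replicate block. Between Notch1f/f and DNMAML 9 were below 0 (median -0.18) and none passed, with 3 at an unadjusted p below 0.05 in the edgeR test, 2 past the threshold with DESeq2 and 0 with limma-voom. Dll4, the arterial Notch ligand, and Hey1, a repressor induced by Notch, were the most abundant targets that did not pass, with log2 differences of -0.41 (SE 0.16, edgeR adjusted p = 0.276) and -0.57 (SE 0.21, edgeR adjusted p = 0.237) in Notch1f/f against WT. In DNMAML against WT they gave -0.27 (SE 0.16) and -0.30 (SE 0.21), each at an edgeR adjusted p of 0.999.

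The genes whose levels were most like those of each ephrin or receptor were taken from 8943 genes by Pearson's r of log2(CPM + 1) over the 9 libraries. This is a description: the points share 3 genotypes and, in DNMAML and WT, replicate numbers. Efnb2 was most like Hilpda, Clstn1, Stard3nl, Zfp319 and Eif4ebp2, with r between 0.966 and 0.985. Hilpda, which encodes a hypoxia-induced lipid droplet protein, had 57.2, 25 and 56.9 CPM in Notch1f/f, 69.1, 81 and 94 CPM in DNMAML and 145, 143 and 152 CPM in WT libraries, the lowest library being the same as for Efnb2. By Spearman's rank measure 1 of these 5 genes stayed among the first 5. For Efna1 the nearest were Pak4, Xab2 and Zbtb46 (r = 0.955, 0.952 and 0.943), and for Efnb1 they were Acap2, Creb1 and Golga3 (r = 0.958, 0.949 and 0.944). Ephb4 was most like Ptgfrn, Podxl and Wfdc1, with r = 0.94, 0.874 and 0.873, lower after the first gene than for the others. Epha2 went with Ube2l6, Higd2a and Tuba1a (r = 0.965, 0.961 and 0.958), and Epha4 with Dync2h1, Ccng2 and Samd12 (r = 0.951, 0.946 and 0.933).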

How the data were processed

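RNA was measured in 9 libraries of sorted mouse lung endothelial cells, 3 for each genotype. Per the labels' protocols, RNA was extracted with a DNase step and made into ribosome-depleted, strand-specific CORALL libraries in a single batch. The authors deposited a table of raw read counts per gene, with the exon length of each gene in bases beside them. Counting used featureCounts 2.0.1 with Ensembl release 107 on GRCm39, with no option for strand or read pairs, per the file headers. Alignment with STAR 2.7 and the build mm10 appear in the submitters' processing notes. Of counts from 1 to 199 in a library, 76.6% to 89% were even, so both reads of a pair seem to have been counted. No source here says whether the molecular identifiers of the kit were used. Symbols were found for 52073 of 56748 identifiers in a GRCm38 annotation used for names alone. Promoters come from RefSeq on GRCm38.p6, a build other than that of the gene coordinates, and all 6 genes matched.

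Genes were kept by filterByExpr with genotype as the group. The edgeR 4.0.16 quasi-likelihood test (R 4.3.3, TMM scaling, robust fit, genotype as the only term) was fitted to all 9 libraries and adjusted by Benjamini-Hochberg over 19486 genes, with a threshold of 0.05. CPM are the deposited counts over the TMM-scaled library size. An SE is the absolute log2 difference over the square root of F, and so restates the test. The fit was tested on simulated data. DESeq2 1.42.0, limma-voom (limma 3.58.1), other scalings, no low count filter, a replicate block and leaving out libraries were tried as alternatives. The sex term and the fits without the libraries lowest in Fos were chosen after seeing the data.

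Same-numbered DNMAML and WT libraries were treated as pairs. Their deviations from the genotype means had correlations of 0.564, 0.468 and 0.225 over 9203 genes, against -0.472 to -0.00957 where the numbers differed. Deviations from a genotype mean cancel out over its libraries, so a positive correlation with 1 library forces lower ones elsewhere. The values below 0 are thus no separate support for pairs. This pairing comes from the same data that the block fit tests, as the labels do not say what the numbers mark. Notch1f/f libraries had correlations from -0.522 to 0.516 with WT or DNMAML libraries of other numbers. The value of 0.516 was between Notch1f/f replicate 1 and WT replicate 2, each the library lowest in Fos of its genotype. Deviations can thus go together without a shared number.

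The members and the gene lists were chosen with earlier results of these data known. Named besides the 6 genes are, of the family, the partners and the arterial, venous and Notch target lists, every gene past the threshold and, of the rest, the 3, 4, 2, 2 and 2 with the highest mean CPM. Genes of likeness had a mean of at least 10 CPM.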

Additional observations from a re-analysis of the deposited data

How the results depend on the processing

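The log2 difference of Efnb2 kept its direction under all 20 alternatives in each comparison, from -1.19 to -0.86 in Notch1f/f against WT, from -0.67 to -0.41 in DNMAML against WT and from -0.65 to -0.30 in Notch1f/f against DNMAML. Of the 6 genes, the number past the threshold in Notch1f/f against WT was 1 in the main fit. With no low count filter it was 3 (Efnb2, Efna1 and Epha4), and with DESeq2 it was 2. It was 0 with the replicate block in 6 libraries, 0 without the libraries lowest in Fos and 0 to 1 with 1 library left out. In DNMAML against WT it was 0, and 1 with no filter (Efna1) and 1 with the replicate block in 6 libraries (Efnb2), and 0 to 0 with 1 library left out. The replicate numbers were not taken to pair Notch1f/f libraries, whose same-numbered correlations were -0.238, -0.135 and 0.193 with WT and -0.124, 0.198 and 0.311 with DNMAML. In those comparisons a block fit blocks by a number only, and Efnb2 then had a log2 difference of -1.09 in Notch1f/f against WT (edgeR adjusted p = 0.0609). Within replicate numbers the Efnb2 to Ephb4 log2 ratio differed by -1.16, -0.43 and -0.73 (exact sign-flip permutation p = 0.25 each, the smallest possible). Apart from Efnb2 in DNMAML against WT, the block in 6 libraries moved none of the other 5 genes past the threshold. Over all genes, the count past the threshold in DNMAML against WT (1) was 460 with no filter, 213 with DESeq2, 0 with limma-voom, 78 in the 6 libraries alone, 4 with the block in 9 libraries and 310 in 6, 33 with a sex term, 40 without the libraries lowest in Fos and 0 to 94 with 1 library left out. In Notch1f/f against WT (163) it was 1415 with no filter, 1067 with DESeq2, 69 with limma-voom, 279 with the block in 9 libraries and 92 in 6, 348 without the libraries lowest in Fos and 13 to 530 with 1 library left out. In Notch1f/f against DNMAML (4) it was 696 with no filter, 172 with DESeq2, 1 in the 6 libraries alone, 8 with the block in 6, 48 without the libraries lowest in Fos and 2 to 31 with 1 library left out. The differences that changed sign passed no threshold on either side of 0. In Notch1f/f against DNMAML Efna1 turned to 0.0015 with upper-quartile scaling, 0.0088 with total counts and 0.21 without the libraries lowest in Fos, Flt4 to 0.016, 0.023 and 0.016 under the same settings, and Rhoa to -0.00086 with the block in 6 libraries and -0.059 with a sex term. Without the libraries lowest in Fos, Epha4 and Heyl turned to -0.35 and 0.10 in DNMAML against WT, and Rock2 to -0.0058 in Notch1f/f against WT. With 1 library left out, these crossed 0: in Notch1f/f against WT Epha2 from -0.054 to 0.34; in DNMAML against WT Efnb1 from -0.097 to 0.023, Epha1 from -0.37 to 0.62, Epha4 from -0.28 to 0.33, Ephb3 from -0.29 to 0.51 and Heyl from -0.41 to 0.16; in Notch1f/f against DNMAML Arhgef15 from -0.25 to 0.043, Efna1 from -0.27 to 0.19, Flt4 from -0.076 to 0.076, Rac1 from -0.20 to 0.016 and Rhoa from -0.065 to 0.088. The causes were not tested. At 3 libraries a genotype, the log2 differences of Efna1 and Epha4 from WT did not pass in the main fit although the Notch1f/f and WT libraries did not overlap.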
